A study of Mus musculus with 4 samples.

Results

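Genes for ubiquitin ligases and their substrate adaptors were examined in granulocyte-monocyte progenitors of wild-type and MST1-deficient mice. The genes were taken by mouse symbol: those that start with Rnf, Fbxo, Fbxl, Fbxw, Klhl, Btbd, Herc, Hectd, Huwe or Ubr, or with Cul and a digit. Of 5059 annotated genes with a value in any library, 87 met this rule, with 144 of the 8219 transcripts listed. The RefSeq table held 271 symbols of this kind, so for the other genes no transcript of the type measured here was listed. No measured value entered the choice by symbol, although results of these data were known when the symbols were picked.

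The study compared the genotypes wild type and MST1 deficient, with 2 libraries in each, and each library held progenitors pooled from the bone marrow of 10 mice. All sorted cells were kept in culture medium with 10% serum and were given no drug. The age, sex and strain of the mice, and the allele behind the deficiency, are not stated in the labels, and MST1 was read as the Hippo pathway kinase encoded by Stk4. No unannotated transcript of Stk4 or of the gene named Mst1 was listed, so the genotype could not be checked on either. Values cover transcripts that the deposited files mark as outside the reference annotation, called unannotated transcripts here. Their annotated transcripts were not analysed here, so no value below is the whole output of a gene. Pairs of values stand for replicates 1 and 2 of a genotype, and "against" sets MST1-deficient libraries beside wild-type ones.

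Ubiquitin ligases attach the small protein ubiquitin to chosen substrates and so mark many of them for destruction by the proteasome. Most RING ligases bring a charged conjugating enzyme next to the substrate, whereas HECT ligases first take the ubiquitin onto themselves. Cullins are scaffolds that hold a RING subunit at one end and exchangeable adaptors at the other: F-box proteins on the CUL1 scaffold, and BTB proteins, such as the BTB-Kelch (Klhl) family, on CUL3. The UBR proteins recognise destabilising residues at the amino end of proteins. In blood progenitors several of these enzymes are known to limit the growth regulators Myc, cyclin E and Notch.

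The 4 libraries listed between 6517 and 6774 unannotated transcripts with 928977 to 1079382 estimated counts, out of library totals of 6913403 to 8518613 implied by the deposited FPKM, which scales fragments by transcript length and library size. The identity of the cells could not be checked well on such transcripts. Of 10 progenitor markers 2 had one: Gfi1, a factor of granulocyte fate, with 16.6 to 46.7 FPKM, and the receptor gene Kit with 0 to 0.05 FPKM, while Cd34, Cebpa, Irf8 and Mpo had none listed. Some marker sums did not overlap between the genotypes. The T and NK cell markers (5 of 8 listed, not Cd3e, Nkg7 or Gzma) summed to 37.3 and 28.4 FPKM in wild type against 18.4 and 12.1 FPKM in MST1-deficient libraries. That gap rested on Klrc1, with 19.7 and 22.3 FPKM against 3.98 and 4.34 FPKM. Ncr1 had the opposite order (5.41 and 4.93 FPKM against 9.86 and 7.63 FPKM), and without Klrc1 the sums of 17.6 and 6.1 against 14.4 and 7.8 FPKM overlapped. The markers of eosinophils, basophils and mast cells (4 of 8 listed, not Prg2, Epx, Cpa3 or Fcer1a) summed to 151.4 and 190.4 FPKM against 113.1 and 126.3 FPKM, and each of the 4 was lower in both MST1-deficient libraries. The erythroid markers (5 of 12 listed, not Gata1 or Klf1) summed to 23.6 and 30.8 FPKM against 18.7 and 7.8 FPKM, but without Sptb the sums of 9.8 and 15.1 against 10.8 and 4.9 FPKM overlapped. In the other direction, the Y-linked genes Kdm5d, Uty, Ddx3y and Eif2s3y summed to 3.6 and 0 FPKM in wild type against 23.4 and 14.8 FPKM in MST1-deficient libraries. The sex of the pools and the genotype cannot be told apart here, and the part of these other cell types in the results was not tested. A lower value in such bulk samples cannot tell fewer cells of a type from less RNA per cell.

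The ligase and adaptor transcripts made up a similar small part of every library. Wild-type libraries listed 126 and 124 of them and MST1-deficient libraries 121 and 116, or 1.78% to 1.9% of the transcripts listed. Together they carried 472 and 449 FPKM in wild type against 437 and 359 FPKM in MST1-deficient libraries, so both MST1-deficient sums lay below the wild-type ones. The spread between the MST1-deficient replicates was larger than the gap to wild type. As a share of listed counts the members took 1.48%, 1.53%, 1.5% and 1.29%, in the same order of libraries, with overlapping groups. With 2 libraries against 2 an exact permutation test cannot go below 0.33, so these sums were not tested.

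By role, BTB adaptors were lower in both MST1-deficient libraries, with 94.5 and 99.3 FPKM in wild type against 70.6 and 65.6 FPKM in MST1-deficient libraries (16 genes, 28 transcripts). Most of this gap came from Klhl12 and Btbd9: the other 14 genes summed to 75.0 and 74.2 FPKM against 70.6 and 65.6 FPKM. The 29 RING genes held the largest sum, 199.0, 182.8, 200.8 and 162.6 FPKM, and their groups overlapped. F-box adaptors (22 genes, which include Fbxl12os, a transcribed pseudogene in RefSeq that meets the rule by its symbol) had 88.5, 68.5, 74.4 and 48.9 FPKM, again with overlap. The 9 HECT genes had 42.9, 47.8, 56.5 and 35.4 FPKM and the 4 Ubr genes 35.4, 44.8, 23.9 and 40.6 FPKM. The 7 cullins were the lowest, with 12.1 and 5.4 FPKM in wild type against 11.3 and 5.8 FPKM in MST1-deficient libraries, so that the libraries numbered 1 stood above those numbered 2 in both genotypes.

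Among gene sums, that is, all unannotated transcripts of a gene added up, no ligase or adaptor passed the threshold of an adjusted p of 0.05. This was 0 of 66 tested members with edgeR, beside 0 of 3221 genes in all (0.0%). At an unadjusted p under 0.05 there were 5 members, all lower in MST1-deficient cells (Klhl12, Btbd9, Rnf40, Klhl24 and Fbxo38), where 2.64% of all tested genes were lower and 3.01% higher at that level. DESeq2 called 3 of the 66 (Klhl12, Btbd9 and Rnf40, all lower), where it called 1.43% of all genes, 0.745% lower and 0.683% higher. Limma on log2(FPKM + 0.5) called 2 of the 66 (Klhl12 and Btbd9, both lower), where it called 0.155% of all genes, 0.0931% lower and 0.0621% higher. Of the 66 members, 13 had both MST1-deficient FPKM sums below both wild-type ones and 3 had both above (Klhl42, Rnf126 and Hectd4), or 19.7% and 4.55%. Hectd4 pointed the other way on counts, with a log2 fold change of -0.38 (SE 0.66). Among all tested genes the same patterns made up 18.8% and 14.0%. The median log2 fold change was -0.12 over the tested members and 0.01 over all tested genes. Testing needed 1 FPKM in at least 2 libraries: 21 members fell short, and Klhl12, Btbd9 and Klhl23 entered through their wild-type libraries alone, so the counts over tested members describe and support nothing.

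**Figure D1:**
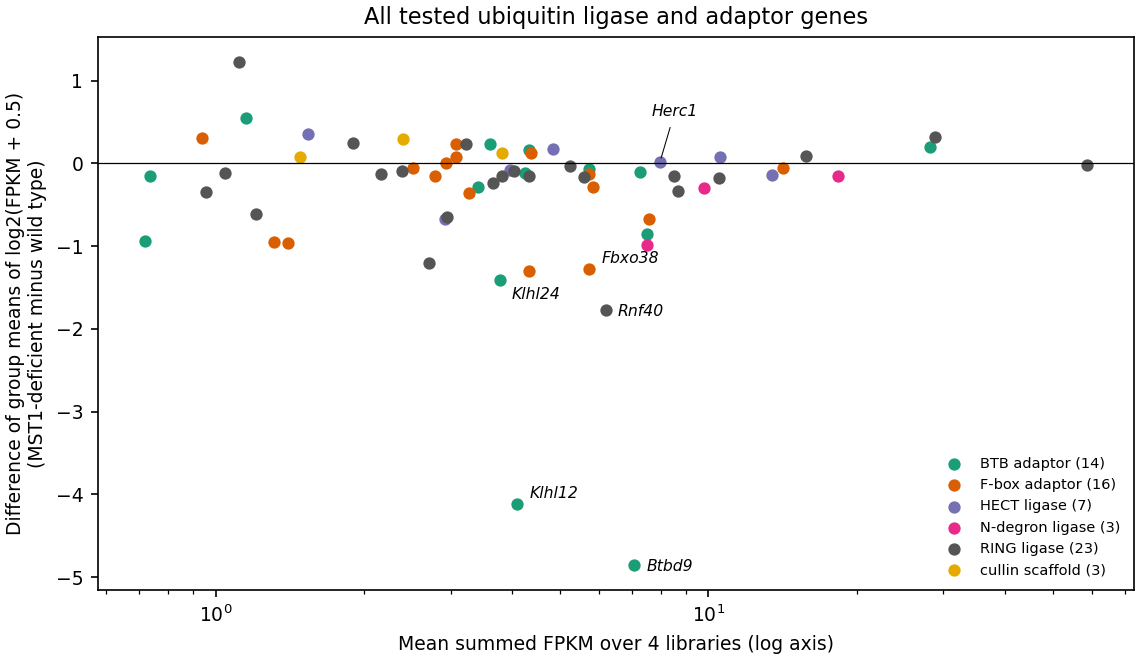
Each point is 1 of the 66 tested ligase or adaptor genes, coloured by role with the number of genes in brackets: the horizontal log axis gives its mean summed FPKM over the 4 libraries and the vertical axis the difference between the group means of log2(FPKM + 0.5), MST1-deficient minus wild type. Klhl12 at -4.11 and Btbd9 at -4.86 lie far below the other genes, of which Rnf40 is the lowest at -1.77, and the 7 HECT genes lie between -0.67 and 0.36, with Herc1 at 0.02.

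Klhl12 and Btbd9 were the BTB adaptors with counts in both wild-type and in neither of the MST1-deficient libraries. KLHL12 is an adaptor of CUL3 that acts on coats of secretory vesicles and on Dishevelled, a relay protein of Wnt signalling. Its 1 unannotated transcript, of 3301 bases, had 194 and 203 estimated counts (7.70 and 8.66 FPKM) in wild type and was not listed in either MST1-deficient library. A count of 0 allows up to 3 counts a library for counting error alone. On that floor the MST1-deficient level was at least 63.9-fold lower, and other reasons for a missing entry were not tested. The unadjusted p was 0.000275 and the adjusted p 0.175 with edgeR. The gene (number 240756) lies on chromosome 1, from 134455495 to 134490880 in GRCm38.p6, the build also called mm10. GENCODE M21 lists 6 annotated transcripts of Klhl12, the longest of 4990 bases, and none has the length measured here.

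Btbd9 followed the same pattern with 2 transcripts. BTBD9 pairs a BTB with a BACK domain, has been put forward as a CUL3 adaptor, and is studied for its link to restless legs syndrome. The form of 1552 bases had 134 and 129 counts in wild type, the form of 1395 bases had 0 and 39.2, and neither was listed in MST1-deficient cells. Summed, wild type had 11.9 and 16.4 FPKM. The wild-type counts lay 48.9-fold above the floor of 3 counts per library in the MST1-deficient libraries. The genotypes gave an unadjusted p of 0.000546 and an adjusted p of 0.201 with edgeR. Both forms are far shorter than the longest annotated Btbd9 transcript of 7058 bases. The gene (224671; chromosome 17, 30215524 to 30582621) spans other annotated genes on both strands, and whether the counting used strand is not stated in the labels or headers.

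The stretches just before the Klhl12 and Herc1 genes are shown because Klhl12 had no counts in MST1-deficient cells and single Herc1 transcripts separated the genotypes while the Herc1 sums overlapped. Both run 5′ to 3′ on the plus strand of GRCm38.p6, from RefSeq, and stop before the first annotated base of the gene: chr1:134455281-134455494 (214 bases) and chr9:66350200-66350411 (212 bases). Capitals mark matches to the GC box GGGCGG on either strand.
Klhl12: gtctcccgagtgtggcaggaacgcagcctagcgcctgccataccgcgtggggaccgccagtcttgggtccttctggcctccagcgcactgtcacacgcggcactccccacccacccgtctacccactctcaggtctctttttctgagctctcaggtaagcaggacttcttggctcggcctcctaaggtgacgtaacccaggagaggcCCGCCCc
Herc1: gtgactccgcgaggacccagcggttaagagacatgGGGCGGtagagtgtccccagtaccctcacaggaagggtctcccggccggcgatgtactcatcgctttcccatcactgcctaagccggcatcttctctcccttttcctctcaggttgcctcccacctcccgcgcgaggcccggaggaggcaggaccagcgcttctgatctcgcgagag
Each window held 1 GC box, and none of the CCAAT box (CCAAT), the core of ETS sites (CGGAAG) or the core of TEAD sites (GGAATG), which serve the factors downstream of the Hippo pathway. The windows were 64.0% and 63.2% G or C. Among windows of 250 bases before a start, a GC box was found in 67.7% of 96 windows of 68 member genes, in 56.5% of 5570 windows of all genes with a listed transcript and in 32.7% of 32851 windows in all. The TEAD core was in 5.21%, 9.87% and 12.6% of the same sets and the ETS core in 42.7%, 24.4% and 13.6%. A GC box can share bases with an ETS core or a CCAAT box, several windows of a gene can overlap, and the sets differ in base composition, with medians of 61.4%, 59.6% and 52.4% G or C. The start sites of the unannotated transcripts are not known, so these windows need not be their promoters.

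The other BTB adaptors differed less. Klhl24, whose protein controls the turnover of keratin, had 4.33 and 6.97 FPKM in wild type against 2.65 and 1.12 FPKM in MST1-deficient libraries, with a log2 fold change of -1.60 on counts (SE 0.50, edgeR adjusted p = 0.773). The groups did not overlap, but the wild-type replicates were further apart than the nearest libraries of the 2 genotypes. Klhl22, which acts on the mitotic kinase Plk1, had 8.20 and 11.2 FPKM against 3.81 and 6.79 FPKM (log2 fold change -0.77, SE 0.51). Klhl23 had 1.03 and 1.11 FPKM against 0.09 and 0.64 FPKM (log2 fold change -1.37, SE 1.05), where the difference was hardly larger than its error. Klhl42, whose protein targets the microtubule-severing enzyme katanin, was the only one of the 12 named gene sums with higher MST1-deficient values, at 1.20 and 0.52 FPKM in wild type against 1.58 and 1.30 FPKM in MST1-deficient libraries (log2 fold change 0.82, SE 0.67).

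Klhl5 was the most abundant BTB adaptor and did not separate the genotypes, with 30.1 and 22.7 FPKM in wild type against 31.5 and 28.7 FPKM in MST1-deficient libraries. Btbd7, a regulator of epithelial branching, had 6.46, 5.10, 7.16 and 4.13 FPKM, and Btbd2 had 2.19, 7.25, 4.51 and 3.05 FPKM, with the highest and lowest value both in wild type. Among the 14 tested BTB adaptors, 10 had negative and 4 positive log2 fold changes (71.4% and 28.6%), with a median of -0.29. Among all tested genes 48.9% were negative and 51.1% positive. Klhl12, Btbd9 and Klhl23 entered the test through wild type alone, so the count of BTB adaptors is a description only. Klhl25 had 22.4, 14.8, 5.84 and 0 counts and, like Klhl29 with 1 count in a single library, was too low to be tested.

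**Figure D2:**
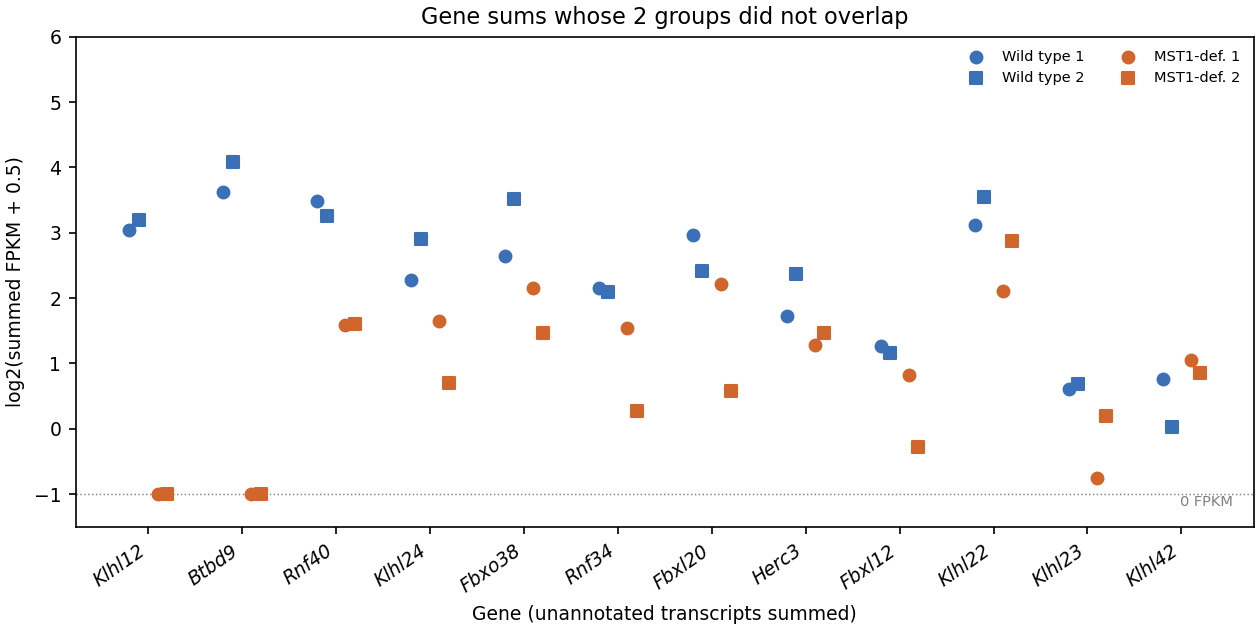
The 12 ligase or adaptor genes with the smallest p-values among those whose genotypes did not overlap, with log2(summed FPKM + 0.5) on the vertical axis for each of the 4 libraries (blue, wild type; orange, MST1-deficient; circles, replicate 1; squares, replicate 2; no mean is drawn). Klhl12 and Btbd9 sit on the dotted line of 0 FPKM in both MST1-deficient libraries, the replicates of Rnf40 lie close together, and only Klhl42 has its orange points above the blue ones.

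The cullin scaffolds were low throughout. Cul4b, the X-linked cullin that works with the adaptor DDB1, led with 5.76 and 1.72 FPKM in wild type against 5.52 and 2.24 FPKM in MST1-deficient libraries. Cul2, the scaffold of the hypoxia ligase with VHL, had 3.46 and 1.04 FPKM against 2.96 and 2.16 FPKM, and Cul9 had 1.90 and 0.93 FPKM against 2.15 and 0.95 FPKM. All 3 overlapped between genotypes, and their log2 fold changes lay between 0.09 and 0.27 with SEs of 0.55 to 0.67. Cul4a was below the level tested and had 23.5 and 35.4 counts in wild type against 7.86 and 8.99 in MST1-deficient libraries. Cul3, the partner of the BTB adaptors, had 4.97 to 11.9 counts in every library, and Cul1, the partner of the F-box adaptors, had 2.37 counts in wild-type replicate 1 alone. Whether the annotated transcripts of these scaffolds differed was not analysed here.

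Among F-box adaptors, 0 of 16 tested genes passed with edgeR beside 0 of 3221 in all, and 1 was lower at an unadjusted p under 0.05, a level at which 2.64% of all tested genes were lower. This was Fbxo38, whose protein directs the checkpoint receptor Pdcd1 of T cells to destruction. It had 5.76 and 10.96 FPKM in wild type against 3.95 and 2.25 FPKM in MST1-deficient libraries, a log2 fold change of -1.43 (SE 0.49, edgeR adjusted p = 0.834). Of its 2 forms, that of 4132 bases was lower in both MST1-deficient libraries, with 130.1 and 155 counts against 36.9 and 58.1, while the counts of the form of 4357 bases overlapped (56.6 and 179 against 76.0 and 19.7).

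Fbxl20 had 7.32 and 4.83 FPKM in wild type against 4.13 and 0.99 FPKM in MST1-deficient libraries (log2 fold change -0.95, SE 0.59). Fbxl12, which acts on inhibitors of cyclin-dependent kinases, had 1.91 and 1.74 FPKM against 1.27 and 0.32 FPKM (log2 fold change -1.19, SE 0.79). In both genes MST1-deficient replicate 2 was the low library and replicate 1 lay near wild type. Fbxl6 was the most abundant F-box gene, with 14.8 and 13.3 FPKM against 18.9 and 9.63 FPKM, so the MST1-deficient replicates enclosed the wild-type ones. Fbxo3 had 6.40 and 5.59 FPKM against 5.52 and 5.34 FPKM, a pattern without overlap but with a log2 fold change of only -0.08 (SE 0.27). Fbxl5, the iron sensor that controls the iron-regulatory proteins, had 15.1 FPKM in wild-type replicate 1 and 3.98 to 6.53 FPKM in the other libraries.

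Fbxw7 is the adaptor that recognises Myc, cyclin E and Notch, and it restrains the cycling of blood stem cells. Its sum was 2.78 and 2.91 FPKM in wild type against 1.93 and 4.10 FPKM in MST1-deficient libraries, with no direction. Its 3 forms were distributed differently. The form of 4333 bases had 28.3 and 28.1 counts in wild type and was not listed in MST1-deficient cells. For counting error alone, that is at least 9.07-fold lower. The form of 4052 bases was listed in MST1-deficient replicate 1 alone (37.1 counts), and that of 4100 bases had 61.4, 59.0, 15.3 and 139 counts. The form of 4333 bases, singled out here after its values were seen, stayed below the level tested.

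The HECT ligases were mostly close between genotypes in their summed level. Of 7 tested HECT genes, 4 had positive and 3 negative log2 fold changes (57.1% and 42.9%), with a median of 0.01. Among all tested genes 51.1% were positive and 48.9% negative. Herc3 had 2.80 and 4.67 FPKM against 1.94 and 2.27 FPKM (log2 fold change -0.72, SE 0.46). Herc6, an interferon-induced family member that attaches the ubiquitin-like protein ISG15 in the mouse, had 5.19 and 3.65 FPKM against 6.98 and 3.51 FPKM.

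Herc1 encodes a giant HECT protein with domains like those of a guanine nucleotide exchange factor, and 7 unannotated transcripts were listed for it. Their lengths ran from 15181 to 15253 bases, so that the longest exceeded the shortest by 72 bases, and all 7 were longer than the longest GENCODE transcript of 15153 bases. The summed level was 6.20 and 9.63 FPKM in wild type against 9.86 and 6.21 FPKM in MST1-deficient libraries. These groups overlapped almost fully, with a log2 fold change of 0.04 (SE 0.33). The gene (235439) lies on chromosome 9, from 66350412 to 66508775, and overlaps Fbxl22 on the opposite strand.

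Single Herc1 forms differed widely between libraries. For the form of 15208 bases, wild-type libraries gave 0 and 0.92 counts, and MST1-deficient libraries gave 168 and 249 counts, or 16.3% and 31.1% of the gene's FPKM. Summed over replicates the counts were 434 times as high (exact 95% interval for counting error: 77.6 to 17200), with an unadjusted p of 0.00158 and an adjusted p of 0.376 by edgeR. The form of 15232 bases had 0 and 2.10 counts in wild type against 75.6 and 322 in MST1-deficient libraries. In the other direction, the form of 15184 bases had 127 and 731 counts in wild type against 53.3 and 8.88 in MST1-deficient libraries (log2 fold change -3.82, SE 1.41, edgeR adjusted p = 0.964). The form of 15181 bases led in both libraries numbered 1, with 49.5% of the wild-type and 34.99% of the MST1-deficient sum, but held 2.80% and 9.98% in those numbered 2. The leading form thus differed between replicates of each genotype. The forms share nearly all their bases if their lengths are a guide, and how the estimator divided shared reads among them is not stated in the labels or headers.

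**Figure D3:**
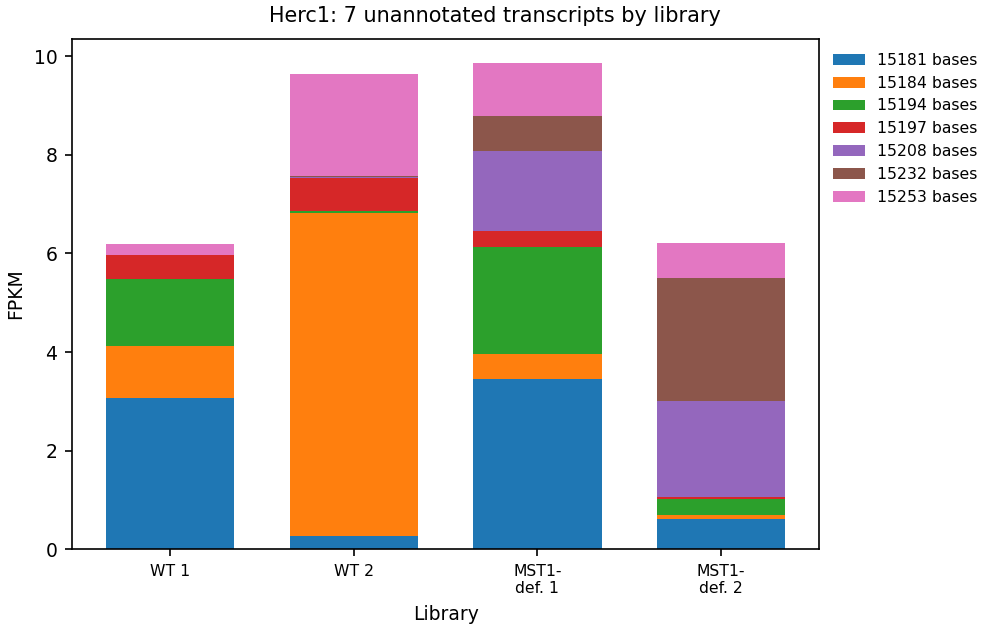
FPKM of the 7 unannotated Herc1 transcripts, stacked by library (WT, wild type), with colours for their lengths in bases. The full bars end at 6.20, 9.63, 9.86 and 6.21 FPKM, while the 15184-base form fills 68.1% of the bar of wild-type replicate 2 and the 15208-base and 15232-base forms are visible only in MST1-deficient libraries.

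Herc2, a partner in the response to DNA breaks, showed a split in a single library. Its sum was 3.96 and 4.13 FPKM in wild type against 4.69 and 3.07 FPKM in MST1-deficient libraries. The form of 15238 bases had 354 counts in MST1-deficient replicate 1 and was at 0 elsewhere, while the form of 14121 bases had 442 and 428 counts in wild type against 126 and 366 in MST1-deficient libraries. Huwe1, a ligase for Myc, Mcl1 and p53, had 8.63 and 10.1 FPKM in wild type against 18.4 and 5.21 FPKM in MST1-deficient libraries. The highest and the lowest Huwe1 level were both found in MST1-deficient cells (log2 fold change 0.31, SE 0.53).

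The Ubr ligases overlapped between the genotypes. Ubr4, the most abundant, had 17.4 and 21.2 FPKM in wild type against 14.4 and 20.6 FPKM in MST1-deficient libraries. Ubr2 had 7.87 and 11.3 FPKM against 2.31 and 8.51 FPKM. In both genes the lowest value belonged to MST1-deficient replicate 1, the groups overlapped, and the log2 fold changes were -0.05 (SE 0.36) for Ubr4 and -0.68 (SE 0.77) for Ubr2.

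Rnf40 was the RING gene with the smallest p-value. RNF40 works with RNF20 to place a single ubiquitin on histone H2B in transcribed genes. Its 1 unannotated transcript, of 4187 bases, had 344 and 271 counts (10.7 and 9.03 FPKM) in wild type and 70.1 and 88.2 counts (2.51 and 2.55 FPKM) in MST1-deficient libraries. The log2 fold change was -1.89 (SE 0.29), larger than the spread between replicates, with an unadjusted p of 0.00196 and an adjusted p of 0.311 with edgeR. Unlike Klhl12 and Btbd9, the transcript was measured in all 4 libraries. The gene (233900; chromosome 7, 127588698 to 127603605) overlaps 2 annotated genes on the opposite strand. Rnf20, its partner, was too low to be tested, with 18.7 and 11.03 counts in wild type against 43.0 and 9.43 in MST1-deficient libraries.

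Most RING genes did not separate the genotypes. Of 23 tested, 2 had both MST1-deficient values below both wild-type ones (Rnf40 and Rnf34) and 1 had both above (Rnf126), or 8.7% and 4.35%, beside 18.8% and 14.0% of all tested genes. Rnf34, which binds caspases, had 3.93 and 3.76 FPKM in wild type against 2.42 and 0.71 FPKM in MST1-deficient libraries (log2 fold change -1.30, SE 0.70). Rnf126, a quality-control ligase of the cytosol, had 0 and 1.17 FPKM against 1.49 and 1.80 FPKM. Rnf114 was the most abundant of all members, with 55.7 and 62.2 FPKM in wild type against 58.7 and 57.8 FPKM in MST1-deficient libraries (log2 fold change 0.04, SE 0.22). Rnf220 followed with 27.6 and 23.0 FPKM against 40.8 and 24.3 FPKM. Rnf31, the catalytic subunit of the complex that builds linear ubiquitin chains, had 2.36 and 3.36 FPKM against 4.70 and 2.45 FPKM.

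Absence from a library did not always follow genotype. Rnf216, a ligase of innate immune signalling, had 299 counts in wild-type replicate 1 and 224 in MST1-deficient replicate 2, and was at 0 in the other libraries. Rnf135, which activates the viral RNA sensor RIG-I, had 62.3 counts in wild-type replicate 1, 0 in wild-type replicate 2, and 20.3 and 15.9 in MST1-deficient libraries. Of the 144 member transcripts, 98 were listed in all 4 libraries (68.1%, against 60.5% of all transcripts) and 16 in a single library. Both wild-type libraries and no MST1-deficient one listed 4 of them, in Klhl12, Btbd9, Fbxw7 and Fbxl20, or 2.78%, where 1.97% of all transcripts had that pattern. The opposite pattern was seen for 0 of 144, where 2.23% of all transcripts had it. The Fbxl20 form among the 4 had 7.62 and 1.52 counts, within reach of the floor of 3.

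At the level of single transcripts, 0 of 93 tested members passed with edgeR, beside 0 of 4661 transcripts in all (0.0%), and 6 had an unadjusted p under 0.05. Of the 6, 5 were lower, beside 2.98% of all tested transcripts, and 1 was higher, beside 2.27%. DESeq2 called 4: those of Klhl12, Btbd9 (1552 bases) and Rnf40, lower, and the Herc1 form of 15208 bases, higher, where it called 2.21% of all transcripts, 1.14% lower and 1.07% higher. Limma on log2(FPKM + 0.5) called 0, where it called 0.107% of all transcripts, 0.0215% lower and 0.0858% higher. Genotypes did not overlap for 23 lower and 10 higher members, or 24.7% and 10.8%, against 19.9% and 13.7% of all tested transcripts. Of the 93, 6 entered the test through wild type alone and 2 through MST1-deficient libraries alone. The Klhl12 transcript, the Btbd9 form of 1552 bases and the Herc1 form of 15208 bases were among these. The calls and counts over tested member transcripts are therefore descriptions only.

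More than 1 unannotated transcript was listed for 31 of the 87 genes (35.6%, against 34.0% of all annotated genes). Of these, 30 had a value in every library, and in 11 the same transcript led in all 4 libraries (36.7%, against 46.3% among all such genes). The leading form was shared by replicates but differed between genotypes in 3 of the 30, where 4.11% of all such genes had this pattern. In Fbxw11, the adaptor for the inhibitor of NF-kappaB and for beta-catenin, the form of 4329 bases held 82.2% and 61.1% in wild type against 42.6% and 18.1% in MST1-deficient libraries. Its relative Fbxw2 had 85.2% and 88.9% in its form of 4319 bases against 44.6% and 35.7%, on sums of 8.63 to 58.4 counts. In Huwe1 the form of 14552 bases led in wild type with 45.5% in each library, and that of 14858 bases led in MST1-deficient libraries with 47.1% and 43.6%, though it already held 41.7% in wild-type replicate 2. Neither Fbxw11 form passed edgeR's test, and that of 4329 bases had a log2 fold change of -1.31 (SE 0.81).

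In other genes a single library held another form than the rest. Rnf14, a ligase that acts at stalled ribosomes, had 121 and 112 counts in wild type against 109 and 125 in MST1-deficient libraries, and its highest FPKM sum was 1.14 times its lowest. The form of 2991 bases held 98.7% to 100% of the FPKM in 3 libraries and 0 in MST1-deficient replicate 2, where the form of 3147 bases held 100%. Rnf123, a ligase that acts on the NF-kappaB precursor, had a like pattern in the same library: its form of 4265 bases had 185, 221 and 243 counts in the other libraries and 0 there, and the form of 4332 bases had 192 counts there and 0 elsewhere. Rnf123 overlaps several GENCODE genes on the opposite strand. Among them is the gene named Mst1, which is not Stk4, the gene that MST1 was read as here. A form with at least 50% of the gene in one library and 0 in another was found in 8 of the 30 genes (Fbxl20, Fbxo11, Fbxo34, Fbxw7, Herc2, Herc3, Rnf123 and Rnf14), or 26.7%, against 27.1% of all such genes. Only Rnf14 combined it with a sum that varied by less than 1.5 times, where 2.72% of all such genes did.

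Other genes spread over many forms. Klhl17, an actin-binding BTB-Kelch protein, had 7 forms on sums of 8.35 and 6.64 FPKM in wild type against 8.53 and 5.58 FPKM in MST1-deficient libraries. Its form of 3057 bases had 60.8 and 46.7 counts in wild type against 3.81 and 20.8 in MST1-deficient libraries (log2 fold change -2.03, SE 0.98), and that of 3421 bases had 31.8 and 19.6 counts against 64.1 and 42.5 (1.11, SE 0.59). In Rnf111, which strengthens TGF-beta signalling, the form of 4793 bases had 98.3 and 163 counts against 26.6 and 51.6 (log2 fold change -1.70, SE 0.63, edgeR adjusted p = 0.973), while the gene sum overlapped. In Rnf43, which removes Wnt receptors from the cell surface, the form of 5632 bases held 18.8% and 27.0% of the wild-type and 44.3% and 46.3% of the MST1-deficient FPKM, on a sum with a log2 fold change of 0.07 (SE 0.30).

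**Figure D4:**
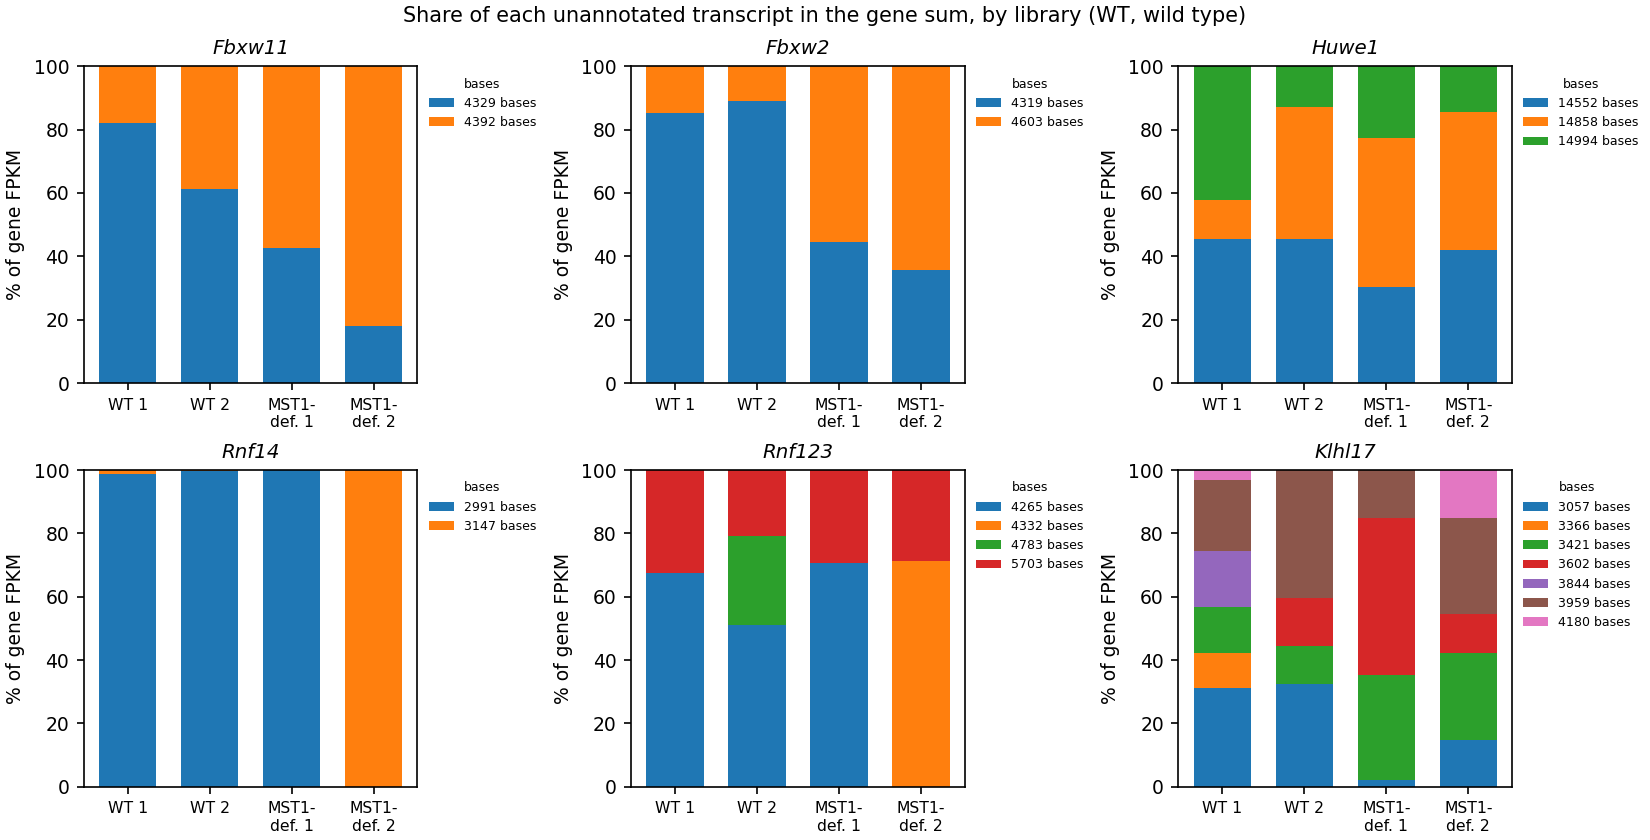
Share of each unannotated transcript in the FPKM of its gene, in percent, for 6 genes and 4 libraries (WT, wild type), with colours for the transcript lengths in bases. The leading colour changes with genotype in Fbxw11, Fbxw2 and Huwe1, in MST1-deficient replicate 2 alone in Rnf14 and Rnf123, and between replicates in Klhl17.

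For members with at least 2 transcripts, the median difference between replicates of a group on the log2(FPKM + 0.5) scale was 0.59 for 56 tested transcripts and 0.55 for 29 tested gene sums. Among all such features it was 0.58 and 0.41. Member transcripts had a median length of 4292 bases, and all transcripts of annotated genes one of 3882 bases. By gene number, 135 member transcripts were matched to a GENCODE M21 gene, which left out those of Klhl17 and Btbd19. Of the 135, 59 were longer than the longest annotated form, and 1 had the length of an annotated form. GENCODE genes overlapped 58 of the 86 members found there by symbol, 41 of them on the opposite strand, so reads in these genes may belong to a neighbour.

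Genes of the same machinery outside the symbol rule were split between both directions. Of 29 symbols for core subunits of cullin ligases and neddylation enzymes (both Skp1 and Skp1a included), 8 were listed and 3 tested. With edgeR 0 of these passed. Ube2f, which conjugates the cullin activator NEDD8, had 4.23 and 2.90 FPKM in wild type against 4.27 and 4.30 FPKM in MST1-deficient libraries, and Eloc, the elongin C subunit, had 12.6 and 10.96 FPKM against 11.4 and 15.6 FPKM. Of the other HECT ligases, 8 of 16 were listed, 4 tested and 0 passed. Arel1, an inhibitor of apoptosis, had 1.83 and 0.90 FPKM against 3.89 and 4.37 FPKM (log2 fold change 1.69, SE 0.46, edgeR adjusted p = 0.673), and Ube3a had 1.04 and 1.55 FPKM against 1.87 and 1.51 FPKM. Of the other RING and U-box ligases and adaptors, 27 of 56 were listed, 18 tested and 0 passed. Cblb, which restrains T cell activation, had 3.78 and 4.94 FPKM against 1.37 and 1.65 FPKM (log2 fold change -1.46, SE 0.40, edgeR adjusted p = 0.673). Mdm4, an inhibitor of p53, had 12.4 and 8.34 FPKM against 14.4 and 13.6 FPKM. Over the 25 tested genes 13 log2 fold changes were positive and 12 negative (52.0% and 48.0%), beside 51.1% and 48.9% of all tested genes. With edgeR 0 of the 25 passed, beside 0 of 3221 genes in all. At an unadjusted p under 0.05 with edgeR, 1 was higher and 1 lower, where 3.01% and 2.64% of all tested genes were. DESeq2 and limma on log2(FPKM + 0.5) each called 0, where they called 1.43% and 0.155% of all tested genes.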

How the data were processed

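RNA from pooled granulocyte-monocyte progenitors was enriched on oligo-dT beads and amplified as cDNA, per the labels' protocols. For each library the authors deposited expected counts (estimated, not normalised) and FPKM for transcripts outside the annotation, per the file headers. The FPKM values follow from the counts with 126 to 138 bases taken off each length. Per the submitters' processing notes, the build is mm10. For aligner, assembler, estimator and strand setting: not given in the sources used here.

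A transcript missing from a library was set to 0. Gene numbers were matched to RefSeq symbols of GRCm38.p6 (5051 of 5059). Counts, summed by gene where stated and rounded, were tested 2-sided across all features with the quasi-likelihood F-test of edgeR 4.0.16 after TMM scaling, in R 4.3.3. Features needed an FPKM of 1 or more in 2 or more libraries, and p-values were adjusted by Benjamini-Hochberg. Each SE is the absolute log2 fold change divided by the square root of its F statistic, not a fitted standard error. Means lie on 2 libraries a group, and no label says that they come from separate preparations, so p-values measure the spread between these libraries only. Genes were named by rule: Klhl12, Btbd9, Rnf40 and Herc1, the 12 gene sums and 10 transcripts with the smallest p among those without overlap, the most abundant gene of each prefix, and 2 genes per pathway list. Some named genes are not reported here. Other members are given as examples chosen after their values were seen. The members and lists were chosen with earlier results of these data known. Alternatives were DESeq2 1.42.0, limma 3.58.1 on log2(FPKM + 0.5) and with pseudocounts of 0.1 and 1, other scalings and filters, the replicate block and each library left out. The scripts were tested on simulated data. Intervals and floors (3 counts per library) cover counting error only.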

Additional observations from a re-analysis of the deposited data

How the results depend on the processing

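The number of gene sums past the threshold was 3 with DESeq2 (Klhl12, Btbd9 and Rnf40), beside 1.43% of all tested genes. With limma it was 2 (Klhl12 and Btbd9) at a pseudocount of 0.5, beside 0.155% of all tested genes. Pseudocounts of 0.1 and 1 gave the same 2, and their shares over all genes are not given here. Klhl12 and Btbd9 entered through wild type alone, so these counts are descriptions only. For single transcripts the number was 4 with DESeq2 and 0 with limma, beside 2.21% and, at a pseudocount of 0.5, 0.107% of all tested transcripts. It was 0 for both levels with RLE size factors, the implied library totals, no filter, a mean FPKM of at least 5 and each library left out, and 0 of the pathway genes passed under any alternative run. With the replicate number as a block it was 0 for gene sums and 0 for transcripts. Deviations of same-numbered libraries correlated at 0.127 over gene sums and 0.126 over transcripts; the samples share only a number, so the block is no sign of pairing.

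With 1 library left out, the lone library of its genotype was assumed to vary like the others, so effect sizes are given below. Of 357 checks of 29 named values, 3 changed direction: the Herc1 sum gave log2 fold changes of -0.31 without wild-type replicate 1 and -0.15 without MST1-deficient replicate 1 (leave-one-out range -0.31 to 0.49), and Eloc gave -0.15 without MST1-deficient replicate 2 (range -0.15 to 0.63). In size, 16 of the 29 values moved by over 1.5 times when 1 library was left out. Without MST1-deficient replicate 1 and without replicate 2, in this order, Klhl23 had -0.54 and -3.55, Fbxl20 -1.997 and -0.35, Fbxl12 -2.27 and -0.58, Rnf34 -2.17 and -0.76, Klhl22 -0.31 and -1.46, and the 3057-base form of Klhl17 -1.29 and -3.64. Without wild-type replicate 2, Fbxo38 had -0.78, Herc3 -0.18, Klhl22 -0.43, Klhl42 0.39, the 15184-base form of Herc1 -1.84, the 4793-base form of Rnf111 -1.11, Ube2f 0.17, Ube3a 0.76 and Mdm4 0.32. Without wild-type replicate 1, Herc3 had -1.11, Klhl42 1.45, Ube2f 0.54 and Ube3a 0.12. Ube2f had 0.17 without MST1-deficient replicate 2. A further 13 checks, with DESeq2 or limma, brought Klhl12, Btbd9, Rnf40 or the 15208-base form of Herc1 past the threshold. Of these, only Rnf40 entered the tests through both genotypes. Without the transcript of Rnf114, the most abundant, the summed member FPKM was 417 and 386 in wild type against 379 and 301 in MST1-deficient libraries. With at least 10 counts in every library that listed them, 3 member transcripts (2.08%) were in wild type alone and 0 in MST1-deficient cells alone. Of all transcripts, 0.925% and 0.779% had these patterns at that limit. The sums without Klrc1, without Sptb, and without Klhl12 and Btbd9 were chosen after seeing the data.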
